A study of Mus musculus with 9 samples.

Results

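A set of 9 genes of sphingosine 1-phosphate (S1P) and lysophosphatidic acid (LPA) signalling were followed in endothelial cells (ECs) of mouse lungs with and without breast cancer metastases. These were the S1P receptors S1pr1, S1pr2 and S1pr3, the LPA receptors Lpar1, Lpar4 and Lpar6, the LPA-producing enzyme Enpp2 and the sphingosine kinases Sphk1 and Sphk2. Of these 9 genes, 8 had a probe set among the 18193 genes measured, and Enpp2 was not analysed here because no probe set was paired with it in the annotation used. The genes were put together because Lpar4 stood among the genes with the lowest p-values that were lower in DC101-treated than in IgG-treated metastatic lungs, where it was number 4 of 9940 genes with a lower mean. That comparison is therefore a description for every one of the 8 genes, and the levels of Lpar4 are a description in every comparison. The other 7 genes were tested against healthy lungs.

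The 9 arrays fell into 3 groups of 3. Metastatic DC101 lungs came from NSG mice, an immunodeficient strain, that carried lung metastases of MDA-MB-231-LM2 cells and received DC101, a rat antibody against mouse VEGFR2. Metastatic IgG lungs came from NSG mice with the same metastases and control IgG, and healthy IgG lungs came from NSG mice without cancer cells that received control rat IgG. In the metastatic groups, the human breast cancer cells were injected into the tail vein of mice aged 6 to 8 weeks. Antibodies were given to these mice on days 21 and 24 (DC101 at 40 mg/kg), and lungs were taken on day 25, which the labels call 3 weeks. The healthy mice were also aged 6 to 8 weeks, and no days of dosing or harvest were recorded for them here. Mice with a comparable metastatic load were chosen for the arrays, per the study's methods. ECs were sorted by CD31 and by the absence of CD45, CD11b, EpCAM, CD140a, CD140b and the GFP of the cancer cells. The labels speak of biological replicates but do not state that each array was a separate mouse, and the p-values thus speak for the scatter of these arrays alone, which may be in part technical.

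S1P and LPA are small lipids that signal through G protein-coupled receptors on the cell surface. Sphingosine kinases make S1P from sphingosine, and autotaxin, the product of Enpp2, makes LPA from lysophosphatidylcholine. In blood vessels, S1pr1 acts through Gi and Rac and strengthens the junctions between ECs, whereas S1pr2 and S1pr3 also couple to G12/13 and Gq. LPA receptors act through overlapping sets of G proteins, and Lpar4 and Lpar6 are among the LPA receptors related to purinergic receptors.

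Over 18193 genes, arrays with the same treatment had a pairwise Pearson r between 0.983 and 0.987 in metastatic DC101 lungs, 0.988 and 0.989 in metastatic IgG lungs, and 0.988 and 0.991 in healthy IgG lungs. The SD of the median gene over 3 arrays was 0.171 in metastatic DC101, 0.139 in metastatic IgG and 0.135 in healthy IgG lungs. DC101 replicate 3 stood apart on the second principal component (13.4% of the variance), and DC101 replicate 1 on the third (10.2%). All 10 pan-endothelial markers listed were measured, and their mean level was 13.35 to 13.57 in metastatic DC101, 13.49 to 13.50 in metastatic IgG and 13.51 to 13.55 in healthy IgG lungs. For comparison, 39 olfactory receptor genes, which ECs are not known to use, had a median level of 6.53 and a 95th percentile of 7.34, called the dim level here. Of the markers that the sort selected against, Epcam and Itgam were near that level, but Ptprc (the CD45 gene, 8.01 to 9.28 over the 9 arrays), Pdgfra (9.54 to 10.39) and Pdgfrb (8.58 to 9.07) were above it. The mean level of the epithelial (8.74 to 9.82), leukocyte and macrophage (8.20 to 8.80) and platelet and erythrocyte markers (8.28 to 9.23) was also above it over the 9 arrays, although Cd3e and Hba-a1, markers of T and red blood cells, were near it. The 3-prime minus 5-prime signal of the Gapdh control probe sets, a measure of RNA integrity and labelling, was 0.35 to 0.60 in metastatic DC101, 0.47 to 0.57 in metastatic IgG and 0.69 to 0.77 in healthy IgG lungs. It separated both metastatic groups from the healthy group, and its part in any comparison with healthy lungs was not tested.

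Lpar4, a receptor for LPA, had the largest difference between the metastatic groups among the 8 genes, which its choice on this comparison made likely. Its level, as log2 expression, was 7.002, 7.19 and 7.61 in metastatic DC101 lungs, 8.32, 8.32 and 8.37 in metastatic IgG lungs and 7.76, 7.42 and 7.63 in healthy IgG lungs. All 3 metastatic IgG arrays lay above all other arrays, and the DC101 and healthy arrays overlapped. The mean was 7.27 ± 0.31 in metastatic DC101, 8.34 ± 0.03 in metastatic IgG and 7.60 ± 0.17 in healthy IgG lungs (SD, n = 3 each). Lpar4 was thus lower by 1.07 on the log2 scale in DC101 than in IgG metastatic lungs (2.10-fold), and higher by 0.73 (1.66-fold) in metastatic IgG than in healthy IgG lungs. The difference between DC101 and healthy lungs was -0.33. No test is given for these differences, because the metastatic arrays took part in the choice of the gene. That choice can also enlarge such differences.

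The level of Lpar4 came from the brightest of 3 probe sets on the array, and the other two were dimmer. The second probe set read 6.38, 6.00 and 6.44 in metastatic DC101, 7.58, 7.19 and 7.15 in metastatic IgG and 6.61, 6.66 and 6.21 in healthy IgG lungs. The third read 6.75, 6.72 and 6.47 in metastatic DC101, 6.98, 7.20 and 7.28 in metastatic IgG and 6.44, 6.87 and 6.61 in healthy IgG lungs. In each of the 3 probe sets every metastatic IgG array exceeded every DC101 array and every healthy array. The 3 probe sets read the same RNA on the same arrays, and the metastatic arrays took part in the choice of the gene. Their likeness is therefore not independent of that choice. The DC101 minus IgG difference of the metastatic lungs was -1.03 in the second and -0.51 in the third probe set, and the metastatic IgG minus healthy difference was 0.81 and 0.51. The DC101 minus healthy difference was -0.22 in the second and 0.01 in the third probe set, so its sign varied with the probe set. All values of the third probe set and most of the second lay below the dim level of 7.34. There a signal cannot be told from that of genes that ECs are not known to use, and changes may be understated. In the probe set used, DC101 replicates 1 and 2 (7.002 and 7.19) also lay below that level.

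**Figure D1:**
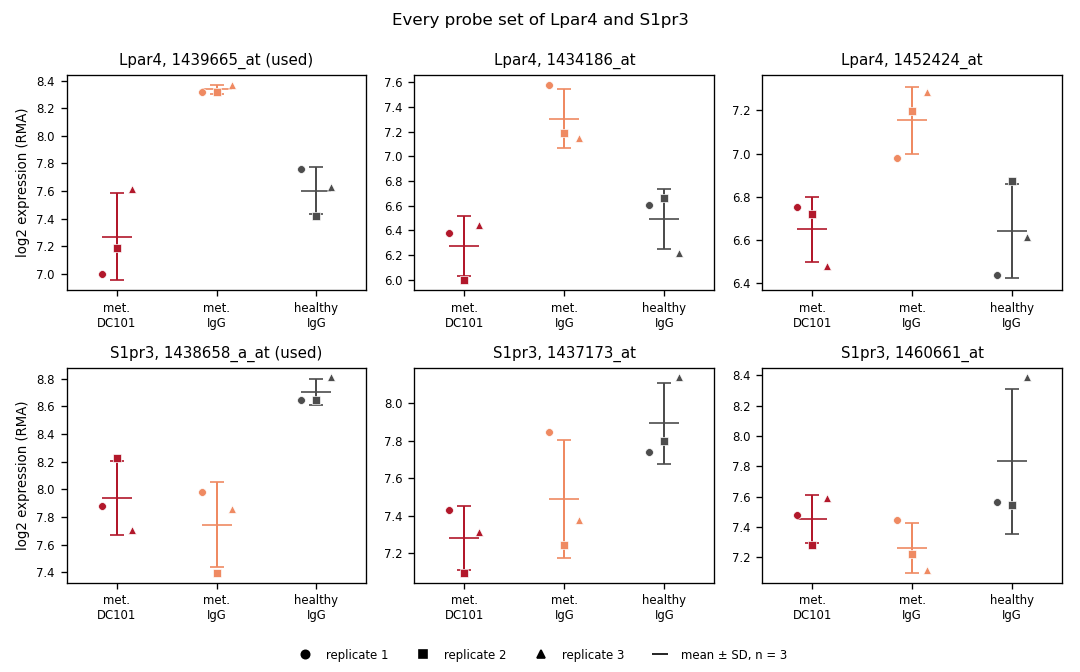
Log2 expression of every probe set of Lpar4 and S1pr3 in the 9 arrays, with metastatic DC101, metastatic IgG and healthy IgG from left to right. Points are arrays, bars give the mean ± SD of 3 arrays, and the metastatic IgG arrays are the highest in all 3 Lpar4 probe sets.

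Lpar4 lies on chromosome X. The RefSeq sequence of GRCm38.p6 upstream of its start site is shown, with that of S1pr3, because these were the genes of the 9 that separated a group in several probe sets. Promoters were matched for 7 of the 9 genes, and the last 250 bases before the start site are printed 5′ to 3′ on the + strand, with the letters of a GC box (GGGCGG) or of a TATA box (TATAAA), on either strand, in capitals. They span chrX:106920375-106920624 and chr13:51408368-51408617.
Lpar4: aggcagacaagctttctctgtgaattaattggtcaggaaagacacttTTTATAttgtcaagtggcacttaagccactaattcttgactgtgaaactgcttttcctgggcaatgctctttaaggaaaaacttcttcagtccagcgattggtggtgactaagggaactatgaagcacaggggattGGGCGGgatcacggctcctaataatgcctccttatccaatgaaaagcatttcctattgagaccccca
S1pr3: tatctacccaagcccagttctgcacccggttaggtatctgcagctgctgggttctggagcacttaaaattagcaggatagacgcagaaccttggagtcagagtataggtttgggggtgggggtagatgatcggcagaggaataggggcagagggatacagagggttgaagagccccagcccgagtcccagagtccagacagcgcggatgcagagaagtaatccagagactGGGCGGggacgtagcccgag

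The Lpar4 window was 43.6% and the S1pr3 window 56.4% G and C, against a median of 52.4% over all promoters. The Lpar4 window held a GC box that began 67 bases before the start site, and the letters of a TATA box on the opposite strand at 203 bases. The S1pr3 window held a GC box at 20 bases. A GC box occurred in 32.7% and a TATA box in 12.4% of 32851 promoter windows of the same length. An E-box (CACGTG, in 6.02% of windows), an AP-1 site (TGANTCA, 6.75%), an ETS site (GGAAGT, 19.7%) and a forkhead site (TGTTTAC, 3.17%), searched on both strands, had no match in either window. A match is a description of the letters and not of a binding site.

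Lpar6, an LPA receptor that couples to G12/13, had a level of 12.66, 12.75 and 12.88 in metastatic DC101, 12.74, 12.77 and 12.66 in metastatic IgG and 12.69, 12.78 and 12.68 in healthy IgG lungs. The groups overlapped. The metastatic IgG minus healthy difference was 0.01 (95% interval -0.20 to 0.21) and the DC101 minus healthy difference was 0.05 (-0.20 to 0.29), with adjusted p of 0.973 and 0.871 (limma, Benjamini-Hochberg). Between the metastatic groups the difference was 0.04. Lpar6 lies within the interval of Rb1, the retinoblastoma tumour suppressor gene, and Rb1 differed by 0.32 between metastatic IgG and healthy lungs (adjusted p = 0.12, limma). The array reads 1 probe set for Lpar6.

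Lpar1, the LPA receptor that fibroblasts and many other cells use, had a level of 8.01, 7.44 and 7.90 in metastatic DC101, 7.44, 7.89 and 7.46 in metastatic IgG and 7.75, 7.74 and 8.46 in healthy IgG lungs. These values overlapped between all groups, and the lowest were close to the dim level of 7.34. The difference from healthy lungs was -0.39 in metastatic IgG (95% interval -0.91 to 0.14, adjusted p = 0.382) and -0.20 in metastatic DC101 lungs (-0.75 to 0.35, adjusted p = 0.732, limma). In both comparisons the interval still held a difference of 0.5 in size.

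S1pr3, an S1P receptor that couples to Gi, Gq and G12/13, fell in metastatic IgG lungs. Its level was 7.88, 8.23 and 7.71 in metastatic DC101, 7.98, 7.40 and 7.86 in metastatic IgG and 8.65, 8.65 and 8.81 in healthy IgG lungs. Every metastatic array lay below every healthy array, and the metastatic groups overlapped. The means were 7.94 ± 0.27 in metastatic DC101, 7.75 ± 0.31 in metastatic IgG and 8.70 ± 0.09 in healthy IgG lungs (SD, n = 3 each). Metastatic IgG lungs were lower than healthy lungs by 0.96 ± 0.16 (SE) on the log2 scale, a 1.94-fold decrease with an adjusted p of 0.0177 (limma, Benjamini-Hochberg, 95% interval -1.34 to -0.58). DC101-treated lungs were lower than healthy lungs by 0.76 ± 0.15 (SE, 95% interval -1.12 to -0.41), which did not pass the threshold (adjusted p = 0.0517). The DC101 minus IgG difference of the metastatic lungs was 0.19. In bulk sorted cells, fewer cells that express a gene and less RNA per cell cannot be told apart.

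The call on S1pr3 was close to the threshold. It was lost without healthy IgG replicate 1, 2 or 3 (adjusted p of 0.0598, 0.0504 and 0.0572) or without metastatic IgG replicate 3 (0.0505), and with the mean of its 3 probe sets, which gave -0.64 and an adjusted p of 0.0698. Against healthy lungs, the DC101 value was called without DC101 replicate 2 (adjusted p = 0.0357).

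The other two S1pr3 probe sets were dimmer. The metastatic IgG minus healthy difference was -0.40 in one, with overlap of the groups, and -0.57 in the other, without overlap. The DC101 minus healthy difference was -0.61 without overlap and -0.38 with overlap. The mean of each of the 3 probe sets was lower in both metastatic groups than in healthy lungs.

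Cells other than capillary ECs can express S1pr3, among them smooth muscle cells, and markers of other cells moved in the same comparison. Of 11 fibroblast and mural markers, 2 rose (Col1a1 and Col1a2) and 2 fell (Myh11 and Dcn) in metastatic IgG lungs, where 3.93% of all genes were called as higher and 2.6% as lower. Their mean level was 9.48 to 9.90 in metastatic IgG and 9.63 to 9.83 in healthy IgG lungs. These and the other marker genes named below were singled out after their values were seen. Myh11, a smooth muscle myosin, had a level of 9.10, 9.89 and 9.44 in metastatic IgG and 10.40, 10.50 and 10.93 in healthy IgG lungs. The 2 groups did not overlap in Myh11. Other smooth muscle and mural genes were not called: the metastatic IgG minus healthy difference was -0.27 for Acta2 (adjusted p = 0.397), 0.10 for Tagln (0.761), -0.60 for Myl9 (0.324) and -0.05 for Rgs5 (0.963, limma), and their groups overlapped. Of 8 epithelial markers 3 fell (Cdh1, Sftpc and Sftpa1), with a mean level of 8.82 to 8.99 in metastatic IgG and 9.003 to 9.74 in healthy IgG lungs, and of 5 platelet and erythrocyte markers 2 fell (Pf4 and Ppbp), against the same 2.6% of all genes. The part of these cells in the S1pr3 result was not tested.

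**Figure D2:**
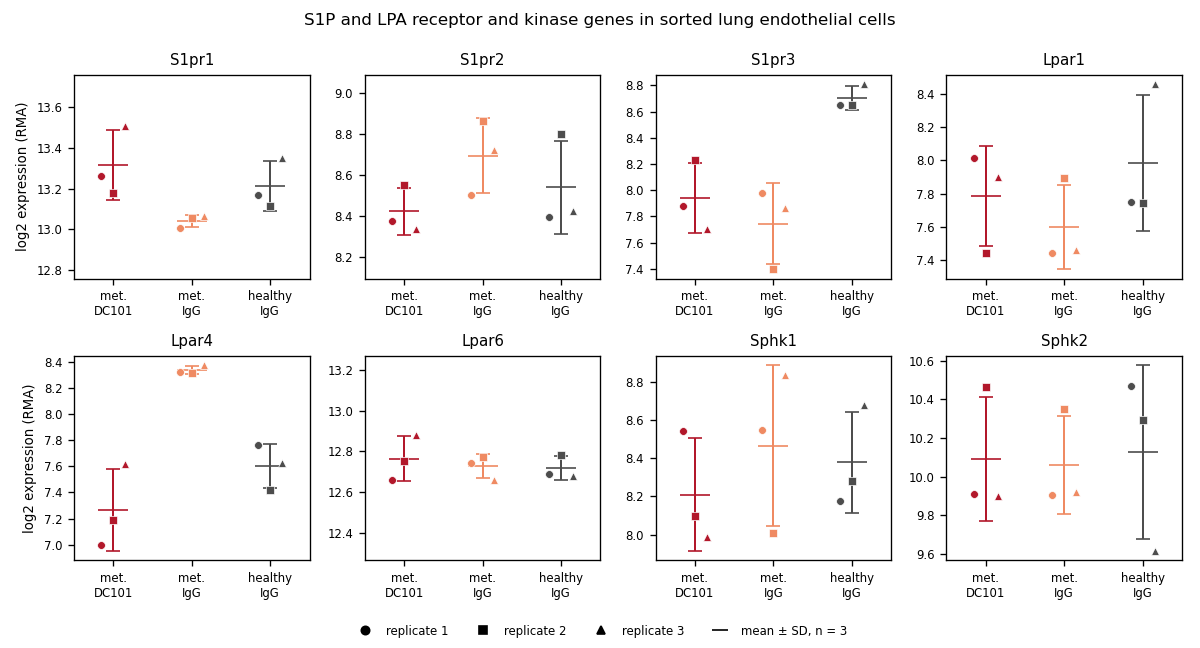
Log2 expression of the 8 measured genes in the 9 arrays, with metastatic DC101, metastatic IgG and healthy IgG from left to right. Symbols mark the replicate and bars give the mean ± SD of 3 arrays, and each panel has its own axis, so levels are not to be compared between genes. S1pr3 is higher in the healthy arrays than in all others, and Lpar4 is higher in the metastatic IgG arrays.

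S1pr1, the main S1P receptor of ECs, had a level of 13.26, 13.18 and 13.51 in metastatic DC101, 13.01, 13.05 and 13.06 in metastatic IgG and 13.17, 13.12 and 13.35 in healthy IgG lungs. The metastatic IgG arrays were the lowest of the 9, by a small margin. Metastatic IgG lungs differed from healthy lungs by -0.17 (95% interval -0.40 to 0.06), which did not pass (adjusted p = 0.367, limma), and DC101 lungs differed by 0.10 (-0.20 to 0.40, adjusted p = 0.751). The DC101 minus IgG difference of the metastatic lungs was 0.27, and these groups did not overlap.

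S1pr2, an S1P receptor that couples to G12/13, had a level of 8.38, 8.55 and 8.34 in metastatic DC101, 8.50, 8.86 and 8.72 in metastatic IgG and 8.39, 8.80 and 8.42 in healthy IgG lungs. The groups overlapped in all 3 comparisons. The difference from healthy lungs was 0.16 in metastatic IgG (95% interval -0.20 to 0.51, adjusted p = 0.611) and -0.12 in metastatic DC101 (-0.45 to 0.21, adjusted p = 0.737, limma). A second probe set, of a cross-hybridising type, differed by -0.19 between the metastatic groups and by -0.12 between DC101 and healthy lungs, with no overlap in either.

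Sphk1 and Sphk2 phosphorylate sphingosine to S1P, the first in the cytoplasm and at the plasma membrane and the second also in the nucleus. Sphk1 had a level of 8.54, 8.10 and 7.99 in metastatic DC101, 8.55, 8.01 and 8.84 in metastatic IgG and 8.17, 8.28 and 8.68 in healthy IgG lungs. Sphk2 had a level of 9.91, 10.46 and 9.90 in metastatic DC101, 9.91, 10.35 and 9.92 in metastatic IgG and 10.47, 10.29 and 9.62 in healthy IgG lungs. Both kinases overlapped between all groups. Against healthy lungs, Sphk1 differed by 0.09 in metastatic IgG (95% interval -0.46 to 0.63, adjusted p = 0.873) and by -0.17 in metastatic DC101 lungs (-0.62 to 0.28, adjusted p = 0.72, limma). Sphk2 differed by -0.07 (-0.63 to 0.50, adjusted p = 0.911) and by -0.03 (-0.62 to 0.56, adjusted p = 0.965). The Sphk2 intervals were the widest of the tested genes, and healthy IgG replicate 3 was the lowest array.

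A second Sphk2 probe set differed from the one used. Its mean was 9.44 ± 0.13 in metastatic DC101, 9.73 ± 0.30 in metastatic IgG and 9.94 ± 0.09 in healthy IgG lungs (SD, n = 3 each). Its DC101 arrays lay below its healthy arrays, with a difference of -0.50, whereas the probe set used differed by -0.03. On the genome Sphk2 overlaps Dbp and Rpl18.

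**Figure D3:**
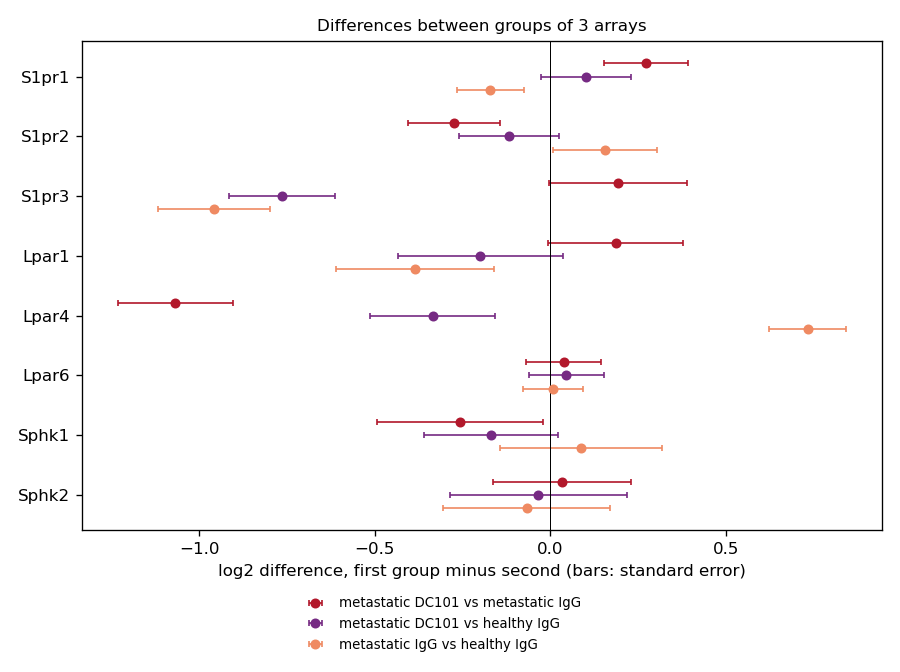
Differences of group means on the log2 scale for the 8 genes, with DC101 minus metastatic IgG, DC101 minus healthy and metastatic IgG minus healthy from top to bottom within each gene. Bars are standard errors of limma (n = 3 arrays per group), and the 4 values farthest from 0 are Lpar4 in both comparisons with metastatic IgG (-1.07 and 0.73) and S1pr3 in both comparisons with healthy lungs (-0.76 and -0.96).

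Between metastatic IgG and healthy lungs, 1 of the 7 tested genes was called at an adjusted p under 0.05, where 6.53% of all 18193 genes were called, 3.93% as higher and 2.6% as lower. Arrays did not overlap in 3 of the 8 genes, in Lpar4 (higher) and in S1pr1 and S1pr3 (lower), against 27.6% of all genes, 13% higher and 14.7% lower. Between DC101 and healthy lungs, 0 of 7 genes were called by limma, 1 (S1pr3) had an unadjusted p under 0.05, as did 17% of all genes, and 2.42% of all genes were called, 1.58% as higher and 0.835% as lower. There S1pr3 was the gene whose arrays did not overlap, 1 of 8, against 23.1% of all genes, 9.44% higher and 13.6% lower. Between the metastatic groups limma called 0% of the 18193 genes, of which 1209 had an unadjusted p under 0.05. Arrays did not overlap in Lpar4 (lower) and S1pr1 (higher), 2 of 8, beside 12.4% of all genes, 5.4% higher and 6.95% lower, and nothing is read from this count because the genes were chosen on this comparison. The non-overlap of Lpar4 in metastatic IgG against healthy lungs likewise rests on arrays that took part in its choice. The median log2 difference of the 8 genes was -0.03, -0.14 and 0.04 in these comparisons in turn, beside -0.02, -0.04 and -0.02 for all genes. Each group of arrays serves in a pair of comparisons, so these counts are not independent.

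Other genes that make, remove and transmit S1P and LPA were read from 7 lists, with 119 of 127 genes measured. Between metastatic IgG and healthy lungs 5 of these rose and 2 fell (5.88% against 6.53% of all genes), and 32 had an unadjusted p under 0.05 (26.9% against 21.3% of all genes). Between DC101 and healthy lungs 1 rose and 1 fell (1.68% against 2.42%), and 23 had an unadjusted p under 0.05 (19.3% against 17%). Between the metastatic groups 0 were called and 10 had an unadjusted p under 0.05 (8.4% against 6.65%). The median log2 difference of the 119 genes was -0.04, -0.03 and 0.01 in the same order.

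Among the 6 measured other receptors, none was called by limma in any comparison, and 2, 1 and 0 had an unadjusted p under 0.05 in metastatic IgG against healthy, DC101 against healthy and DC101 against metastatic IgG, beside 21.3%, 17% and 6.65% of all genes. S1pr4, an S1P receptor of lymphocytes named here after its values were seen, averaged 10.59 in metastatic DC101, 10.52 in metastatic IgG and 11.27 in healthy IgG lungs, with adjusted p of 0.0651 and 0.0547 for the DC101 and the IgG group against healthy lungs. Leukocyte and macrophage markers (9 measured) had mean levels of 8.20 to 8.80 in metastatic DC101, 8.48 to 8.68 in metastatic IgG and 8.57 to 8.70 in healthy IgG lungs. Ptprc, the CD45 gene of leukocytes, averaged 8.25 in metastatic DC101, 8.33 in metastatic IgG and 9.01 in healthy IgG lungs (adjusted p of 0.123 and 0.0614 against healthy lungs, limma). It fell the most of the 9 markers in both comparisons, and other markers went the other way. The differences from healthy lungs ran from -0.76 to 0.65 in DC101 and from -0.68 to 0.73 in metastatic IgG lungs. Their median was -0.11 in each, and 0 of the 9 were called. The part of leukocytes in the S1pr4 values was not tested. The list of ceramide and sphingolipid metabolism (24 measured) also had 0 calls by limma, with 7, 4 and 2 genes at an unadjusted p under 0.05, beside the same shares of all genes.

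Plpp2, a lipid phosphate phosphatase that removes the phosphate of LPA and S1P outside the cell, was the called gene of the list on S1P removal and export. Its level was 10.37, 10.53 and 9.79 in metastatic DC101, 10.67, 10.46 and 10.26 in metastatic IgG and 9.40, 9.24 and 9.49 in healthy IgG lungs. Both metastatic groups lay above the healthy arrays. The metastatic IgG minus healthy difference was 1.09 ± 0.13 (SE, adjusted p = 0.00522, limma) and the DC101 minus healthy difference was 0.85 ± 0.20 (adjusted p = 0.0827). With the mean of its probe sets the metastatic IgG minus healthy difference of Plpp2 was 0.51 (adjusted p = 0.0381).

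In the list of LPA and lysophospholipid metabolism (24 measured), 1 gene rose and 2 fell in metastatic IgG lungs. Enpp6, a choline-specific phosphodiesterase of the family of autotaxin, read 8.49, 8.11 and 7.27 in metastatic DC101, 7.85, 7.93 and 7.89 in metastatic IgG and 8.85, 8.69 and 9.31 in healthy IgG lungs. Metastatic IgG lungs were lower by 1.06 ± 0.16 (SE, adjusted p = 0.013, limma), a call that was lost without metastatic IgG replicate 3 (adjusted p = 0.0518) and with all 9 arrays in 1 fit (0.0603). Lpcat3, a lysophospholipid acyltransferase, rose by 0.57 ± 0.13 (adjusted p = 0.0463), and Gdpd1, a phosphodiesterase that can release LPA, fell by 0.43 ± 0.09 (adjusted p = 0.043). Both of these calls were lost with any 1 of the 6 arrays left out, with adjusted p of 0.0691 to 0.128 for Lpcat3 and 0.0675 to 0.124 for Gdpd1. The DC101 minus healthy difference was -0.99 for Enpp6 (adjusted p = 0.172), 0.54 for Lpcat3 (0.111) and -0.39 for Gdpd1 (0.125, limma). None of these passed, and the DC101 and healthy arrays did not overlap in any of them.

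In the list of G proteins and downstream genes (20 measured), Gnai1 and Tiam1 rose in metastatic IgG lungs. Gnai1, an inhibitory G protein alpha subunit, read 11.11, 11.42 and 10.71 in metastatic DC101, 11.60, 11.31 and 11.34 in metastatic IgG and 10.46, 10.68 and 10.48 in healthy IgG lungs. The metastatic IgG minus healthy difference was 0.88 ± 0.12 (SE, adjusted p = 0.0078, limma). The DC101 minus healthy difference of Gnai1 was 0.54 ± 0.18 (adjusted p = 0.199), which did not pass, although the groups did not overlap. Tiam1, an exchange factor that activates Rac, read 9.14, 11.13 and 10.50 in metastatic DC101, 11.42, 11.46 and 11.60 in metastatic IgG and 9.03, 9.81 and 7.83 in healthy IgG lungs. Its DC101 and healthy arrays varied widely and overlapped. Tiam1 rose by 2.60 ± 0.44 in metastatic IgG lungs (6.08-fold, adjusted p = 0.0188), but by 1.02 with the mean of its probe sets (adjusted p = 0.0338). The call was lost without healthy IgG replicate 1 (adjusted p = 0.0638) or metastatic IgG replicate 1, 2 or 3 (0.0574, 0.0583 and 0.0709).

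Rgs16, which speeds the shut-off of Gi and Gq signals, rose in the list of receptor desensitisation and trafficking (14 measured). It read 8.51, 8.76 and 9.19 in metastatic DC101, 9.35, 9.61 and 9.91 in metastatic IgG and 8.32, 8.47 and 8.41 in healthy IgG lungs, and no group overlapped another. The metastatic IgG minus healthy difference was 1.23 ± 0.15 (SE, adjusted p = 0.0055, limma), and the DC101 minus healthy difference was 0.42 ± 0.18 (adjusted p = 0.288). With the mean of its probe sets the metastatic IgG minus healthy difference of Rgs16 was 0.78 (adjusted p = 0.0104). The DC101 minus metastatic IgG difference of -0.81 ± 0.21 did not pass (adjusted p = 0.737).

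Against healthy lungs, Arrb2 and Ccn2 were the called genes under DC101. Arrb2, beta-arrestin 2, which uncouples and internalises receptors, read 9.86, 9.57 and 9.78 in metastatic DC101, 10.01, 9.99 and 10.09 in metastatic IgG and 10.51, 10.42 and 10.31 in healthy IgG lungs. Ccn2, a matrix protein gene that YAP and TAZ activate, read 13.74, 13.33 and 13.37 in metastatic DC101, 13.12, 13.07 and 13.00 in metastatic IgG and 12.46, 12.73 and 12.71 in healthy IgG lungs. In both genes the metastatic IgG arrays lay between the DC101 and the healthy arrays without overlap. Arrb2 fell by 0.68 ± 0.12 (SE, adjusted p = 0.0363) and Ccn2 rose by 0.85 ± 0.15 (adjusted p = 0.0347, limma) in DC101 against healthy lungs. With any 1 of the 6 arrays left out both calls were lost, with adjusted p of 0.0696 to 0.139 for Arrb2 and 0.0613 to 0.129 for Ccn2. Without cross-hybridising probe sets Arrb2 also lost its call (-0.61, adjusted p = 0.132, limma), whereas Ccn2 kept its call (adjusted p = 0.0359). For metastatic IgG against healthy lungs the differences were -0.38 (adjusted p = 0.0571) and 0.43 (0.0596).

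**Figure D4:**
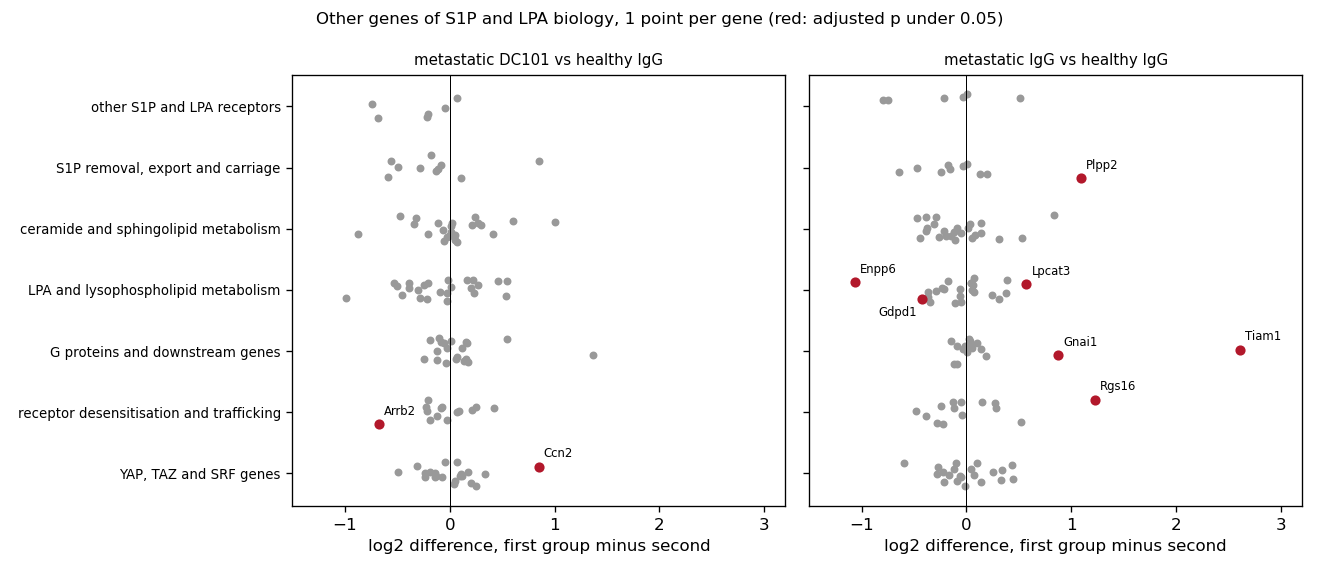
Log2 difference of each of the 119 measured pathway genes by list, for the comparisons with healthy lungs. Called genes (limma, adjusted p under 0.05) are red and named, and the highest is Tiam1 in metastatic IgG against healthy lungs.

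**Figure D5:**
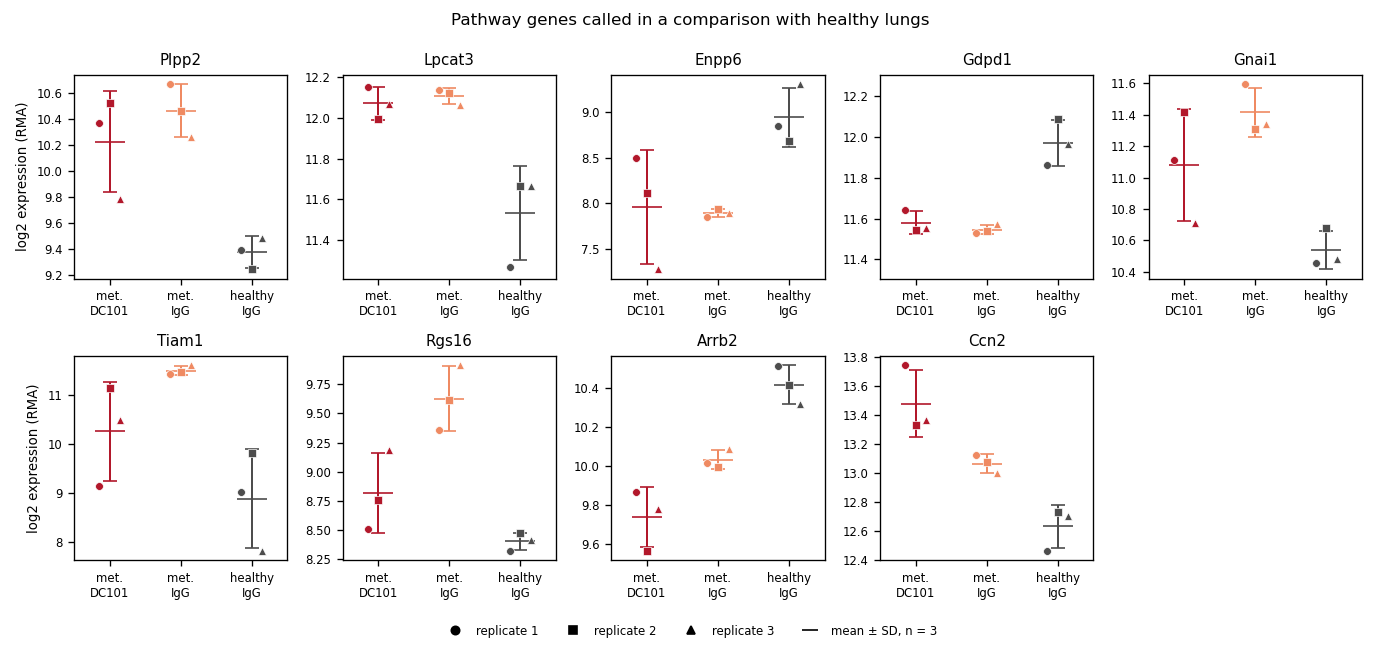
Log2 expression by array of the 9 pathway genes called in a comparison with healthy lungs, with metastatic DC101, metastatic IgG and healthy IgG from left to right and bars at the mean ± SD of 3 arrays. Each panel has its own axis.

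The genes whose levels ran most like those of Lpar4 over the 9 arrays were Rftn2 (Pearson r = 0.957), Pms1 (0.942), Atp5g2 (0.933), Hpca (0.933) and Prr18 (0.920). They were taken from 9096 genes whose SD was at least that of the median gene, and arrays of a group share their treatment, so r is a description without a p. Rftn2, which codes for a raftlin, ranged between 9.21 and 9.72 in metastatic DC101, 9.98 and 10.16 in metastatic IgG and 9.56 and 9.79 in healthy IgG lungs. All 5 genes were highest in metastatic IgG lungs, with DC101 minus metastatic IgG differences of -0.62 to -0.42, against -1.07 for Lpar4. They were picked for running like Lpar4 over these same arrays, so the shared peak follows from their choice. Cell cycle markers, 6 of 7 of which rose in both metastatic groups (3.93% of all genes did in metastatic IgG and 1.58% in DC101 against healthy lungs), had a mean level of 10.28 to 11.35 in metastatic DC101, 10.996 to 11.85 in metastatic IgG and 8.34 to 8.74 in healthy IgG lungs. Lymphatic endothelial markers (6 measured) had a mean level of 10.72 to 11.27 in metastatic DC101, 11.09 to 11.23 in metastatic IgG and 9.64 to 10.26 in healthy IgG lungs, and 3 of them (Prox1, Mmrn1 and Reln) rose in metastatic IgG lungs, against 3.93% of all genes. The part of dividing or lymphatic ECs in the Lpar4 values was not tested.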

How the data were processed

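RNA from sorted lung ECs was amplified with a 3-prime in vitro transcription kit and hybridised to Affymetrix mouse genome arrays. The authors used robust multiarray averaging (RMA), run in Chipster, for normalization, and the deposited values are taken as log2 expression, since RMA returns log2 values and the table does not name its base. RMA gives all arrays 1 distribution, so a change of total RNA cannot be seen. Of 45101 probe sets, 64 controls, 932 with several gene symbols and 9160 not named here were left out. Where a gene had several probe sets, the brightest on average stood for it. For 18193 genes a linear model was fitted to the 6 arrays of each comparison (limma 3.58.1, R 4.3.3, two-sided), after the two-group empirical Bayes test in the study's methods, with Benjamini-Hochberg adjustment and calls under 0.05. The fit was tested on simulated data. Levels are not compared between genes, and the number of arrays limits precision.

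The 9 genes and the gene lists were chosen with earlier results of these data known. Named were the 9 genes, the called genes of each pathway list (at most 4 by size of change) and the 5 genes most correlated with Lpar4. Alternatives were the mean of all probe sets, no cross-hybridising probe sets, bright genes, all 9 arrays in 1 fit, a trended robust variance, a replicate block and leaving out each array.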

Additional observations from a re-analysis of the deposited data

How the results depend on the processing

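Of the S1P and LPA genes, 0 instead of 1 were called in metastatic IgG against healthy lungs with the mean of all probe sets. With bright genes only 0 were also called, but that filter kept S1pr1, Lpar6 and Sphk2 alone and removed S1pr3 and Lpar4 among others. With 1 array left out 0 to 1 were called. In DC101 against healthy lungs 1 instead of 0 was called with all 9 arrays in 1 fit (S1pr3, adjusted p = 0.0489), and 0 to 1 with 1 array left out. Over all genes, with 1 array left out, 556 to 759 instead of 1188 genes were called in metastatic IgG against healthy lungs and 110 to 361 instead of 440 in DC101 against healthy lungs, where all 9 arrays in 1 fit gave 662. DC101 against metastatic IgG gave 0 calls in each alternative run.

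The replicate numbers are shared by the groups. Deviations of same-numbered arrays correlated at -0.05 to 0.08, within the -0.14 to 0.098 of differently numbered arrays. These correlations gave no sign of pairing by number, but so few arrays cannot exclude it. With the number as a block, 689 genes were called in metastatic IgG and 247 in DC101 against healthy lungs, and S1pr3 in metastatic IgG kept its call (adjusted p = 0.0366), whereas Lpcat3 (0.095) and Gdpd1 (0.103) in metastatic IgG and Arrb2 (0.0785) and Ccn2 (0.0916) in DC101 against healthy lungs lost theirs.

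Uncalled differences near 0 took either sign when 1 array was left out. In metastatic IgG against healthy lungs these were Lpar6 (-0.015 to 0.041), Sphk1 (-0.098 to 0.316) and Sphk2 (-0.321 to 0.105). In DC101 against healthy lungs these were S1pr2 (-0.190 to 0.013), Lpar1 (-0.319 to 0.038), Lpar6 (-0.011 to 0.098) and Sphk2 (-0.288 to 0.138).

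The DC101 minus metastatic IgG difference of Lpar4 was -1.24 to -0.93 with 1 array left out and -0.87 as the mean of its probe sets. Each of these values re-uses arrays that took part in the choice of Lpar4, so their likeness is no test of the difference. Groups of 3 arrays and dim probe sets limit what could be called.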
